A study of Homo sapiens with 5 samples.

Results

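The genes described here are 10 structural genes of the extracellular matrix, COL5A2, COL5A1, COL4A1, COL4A2, COL6A1, COL6A2, COL7A1, COL12A1, FN1 and TNC, out of 33538 genes in the deposited matrix. They were listed by name, with earlier results of these data known. Each was followed as CPM (its UMIs, each 1 tagged transcript, per 1000000 UMIs of the sample) and as the share of cells with a UMI. A gene under 1 CPM in all 5 samples is reported as not expressed. By that rule 6 of the 10 were expressed and COL5A1, COL6A1, COL6A2 and COL7A1 were not.

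The cells were MDA-MB-468, an established human triple-negative breast cancer line of basal type, kept in culture. The samples were HA FOSL1 and HA control in one system, and VPR FOSL1 gRNA2, VPR FOSL1 gRNA3 and VPR control in the other. The labels do not spell out HA or VPR, and they call the set GOF without saying how FOSL1 was raised. Its product FRA-1 pairs with a JUN protein to form AP-1, a transcription factor. A 5-FU treatment is described for the whole series, and whether it was given to these samples is not stated. Each group was 1 sample, and all were hashed with antibodies and run as 1 pool. A ratio of 2 samples is therefore unreplicated, and the intervals reflect counting error alone.

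Collagens are secreted triple helices. Types V and I assemble into fibrils, type IV forms the sheet of the basement membrane, type VI forms beaded filaments, type VII anchors epithelium to the stroma and type XII lies on the surface of fibrils. Fibronectin and tenascin-C are large glycoproteins of the matrix that bind cells through integrins. Epithelial cells usually make basement membrane components, whereas fibril collagens are chiefly made by stromal cells.

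The kept cells numbered 1826 for HA FOSL1, 3380 for HA control, 2542 for gRNA2, 4299 for gRNA3 and 2595 for VPR control, and their summed depth ran between 42058533 UMIs (HA FOSL1) and 85556699 UMIs (gRNA3). The median cell held 20768.5 UMIs in HA FOSL1 and 15401.5 in HA control, and 17414.5 with gRNA2, 18121 with gRNA3 and 15810 in VPR control, so shares of cells are given after thinning each cell to 5000 UMIs. FOSL1 stood at 63.5 CPM in HA FOSL1 against 8.96 CPM in HA control, and at 100.5 CPM with gRNA2 and 94.3 CPM with gRNA3 against 8.91 CPM in VPR control. All 8 epithelial markers were at 1 CPM or more, with EPCAM between 343 and 383 CPM. Of 9 fibroblast markers, DCN and LUM had 0 UMIs in all 5 samples, COL1A2, COL3A1, THY1 and PDGFRB stayed under 0.1 CPM, and PDGFRA, FAP and COL1A1 reached 1.40, 2.37 and 4.30 CPM at most. Summed, the 9 stood at 4.61 CPM in HA FOSL1 and 7.73 CPM in HA control, and at 5.31 CPM with gRNA2 and 5.33 CPM with gRNA3 against 6.28 CPM in VPR control. The 5 immune markers summed to 4.47 CPM in HA FOSL1 and 0.842 CPM in HA control, and to 1.62 CPM with gRNA2 and 2.65 CPM with gRNA3 against 0.759 CPM in VPR control. Most of this was CD68, a lysosomal protein best known in macrophages, at 4.11 CPM in HA FOSL1 and 0.754 CPM in HA control, and at 1.39 CPM with gRNA2 and 2.44 CPM with gRNA3 against 0.692 CPM in VPR control (adjusted p = 0.070 in an edgeR model of all 5 samples, 0.00054 in DESeq2). PTPRC had 15 UMIs in HA FOSL1 and 3 in HA control. It had 10 with gRNA2 and 16 with gRNA3 against 1 in VPR control (adjusted p = 0.058 in edgeR). PTPRC did not exceed 0.357 CPM, and MS4A1 had 0 UMIs in all 5 samples. The 4 endothelial markers summed to 2.95 CPM in HA FOSL1 and 1.67 CPM in HA control. With gRNA2 and gRNA3 they stood at 1.81 and 2.10 CPM, against 1.16 CPM in VPR control. ESR1 had 4.87 CPM in HA FOSL1 and 1.60 CPM in HA control (adjusted p = 0.095 in edgeR, 0.027 in DESeq2). With the guides it had 2.91 and 2.63 CPM, against 1.83 CPM. PGR had 0 UMIs in all 5 samples. ERBB2 lay below its control in HA FOSL1 and with both guides but did not pass (adjusted p = 0.11 in edgeR, 0.23 in DESeq2). Of the epithelial markers, KRT5 (log2 0.62, adjusted p = 0.029) and EGFR (log2 0.36, adjusted p = 0.036) rose in the edgeR model. KRT7 and KRT19 passed in DESeq2 alone. KRT8 and KRT18 passed in neither, with log2 ratios of 1.14 and 1.24 in HA FOSL1. CDH1 lay below its control in HA FOSL1 and with both guides but passed in neither (adjusted p = 0.23 in edgeR, 0.55 in DESeq2). In the HA system its 2 intervals overlapped. Summed, the 8 stood at 13584 CPM in HA FOSL1 and 8149 CPM in HA control. With gRNA2 and gRNA3 they stood at 10743 and 10482 CPM, against 8803 CPM in VPR control. The part of these markers in the results was not tested. Free RNA was read from 48909 empty droplets. It is a mixture of all 5 samples, and no cell type in this culture lacks the genes, so its level is given where it bears on a value.

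COL5A2, which encodes the α2 chain of collagen V, was the member that differed most. COL5A2 had 89.3 CPM (95% Poisson interval 86.4 to 92.2, from 3755 UMIs) in HA FOSL1 and 17.1 CPM (16.1 to 18.2) in HA control. The gRNA2 sample had 53.1 CPM (51.0 to 55.2) and the gRNA3 sample 49.6 CPM (48.2 to 51.2), against 15.6 CPM (14.5 to 16.8) in VPR control. All 3 FOSL1 samples lay above both controls. The intervals of the 2 guides overlapped, as did those of the 2 controls. On the log2 scale of CPM + 1, COL5A2 was higher by 2.32 (2.22 to 2.41) in HA FOSL1 than in HA control, by 1.70 (1.59 to 1.82) with gRNA2 than in VPR control and by 1.61 (1.5 to 1.72) with gRNA3 than in VPR control. Empty droplets held 48.3 CPM of COL5A2 (39.4 to 58.6), a level near that of the guide samples and above both controls, and with 5% of each sample's UMIs subtracted as free RNA the 3 ratios were 2.49, 1.86 and 1.77. COL5A2 lies at chr2:189031898-189441111 (GRCh38.p14).

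COL5A1 (chr9:134641803-134844843) encodes the α1 chain, which the common form of collagen V, a trimer of α1 and α2 chains, requires. COL5A1 had 6 UMIs in HA FOSL1 (0.143 CPM) and 3 in HA control (0.0526 CPM), and 1 with gRNA2, 3 with gRNA3 and 1 in VPR control. At that depth no difference was detectable. The chains of collagen I and III that share fibrils with collagen V were also low. COL1A1 had 2.45 CPM in HA FOSL1 and 4.30 CPM in HA control, and 2.50 CPM with gRNA2, 2.21 CPM with gRNA3 and 3.31 CPM in VPR control. COL3A1, whose gene lies 19152 bases from COL5A2, had 0 UMIs in HA FOSL1 and with gRNA2 and did not exceed 0.0223 CPM elsewhere.

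**Figure D1:**
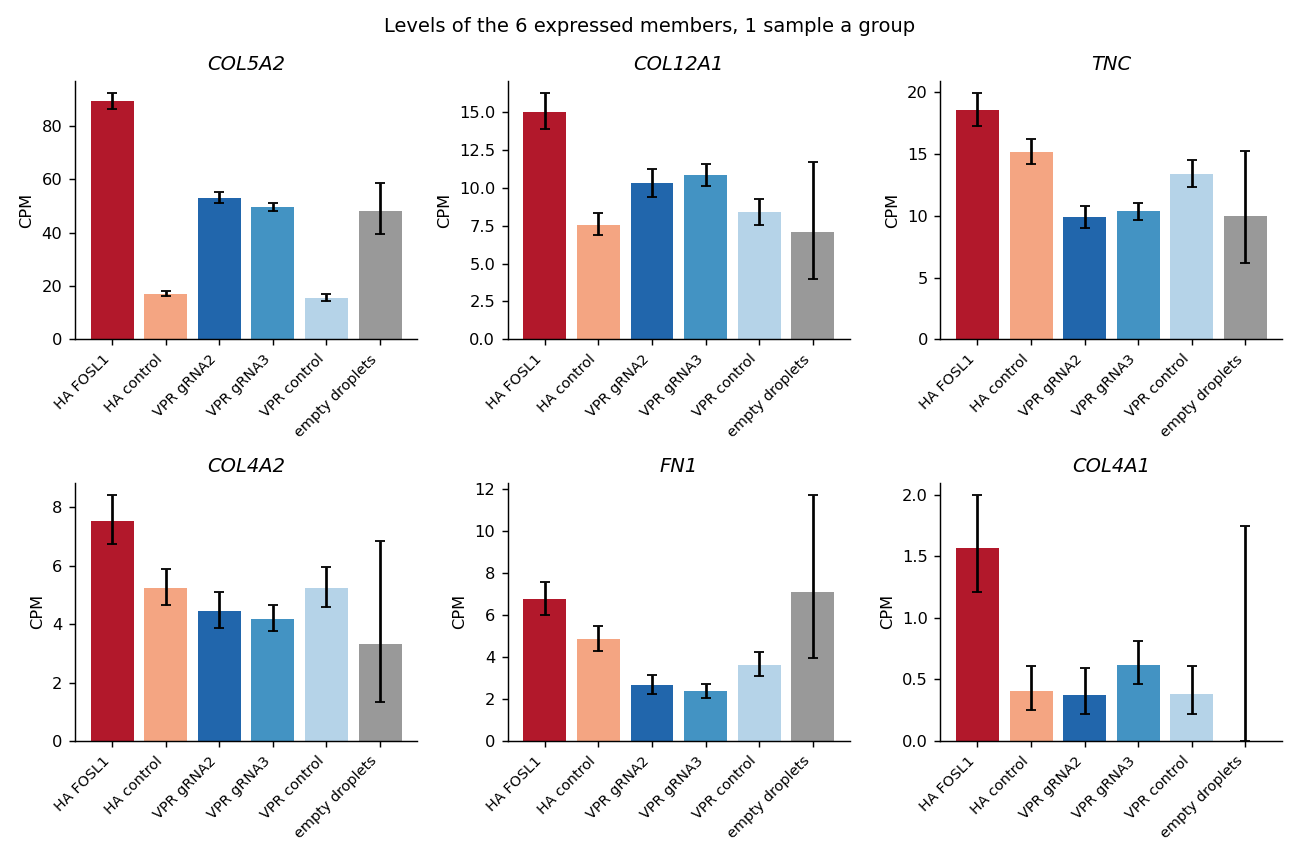
Levels of the 6 expressed members in CPM (y axis, linear, a separate scale for each gene) in the 5 samples and in empty droplets; bars are single samples and whiskers are 95% Poisson intervals of counting error. COL5A2 stands at 89.3, 53.1 and 49.6 CPM in the FOSL1 samples against 17.1 and 15.6 CPM in the controls, whereas TNC and FN1 have their lowest bars in the 2 guide samples.

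COL12A1, at chr6:75084326-75206053, encodes the chain of collagen XII, which coats fibrils. COL12A1 had 15.0 CPM (13.9 to 16.2) in HA FOSL1 and 7.56 CPM (6.86 to 8.31) in HA control. With gRNA2 it had 10.3 CPM (9.39 to 11.2) and with gRNA3 10.8 CPM (10.1 to 11.5), against 8.37 CPM (7.55 to 9.27) in VPR control. The order was the same as for COL5A2 in that the FOSL1 samples were above the controls, and no interval of a FOSL1 sample met that of a control. The log2 ratio was 0.90 (0.74 to 1.07) in the HA system, 0.27 (0.09 to 0.44) with gRNA2 and 0.33 (0.18 to 0.49) with gRNA3. Empty droplets held 7.10 CPM.

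COL4A1 and COL4A2 encode the α1 and α2 chains of the main collagen IV trimer, which contains both. The genes stand head to head on chromosome 13, COL4A1 at chr13:110148963-110307157 and COL4A2 at chr13:110307284-110513209, with their starts 127 bases apart. The RefSeq windows of 250 bases before to 50 after each start therefore overlap over 226 bases, which are in capitals below. They are shown, each 5′ to 3′ on the strand of its gene, because 1 stretch of DNA starts both transcripts and the values of the 2 genes can be read against it. The COL4A2 window is chr13:110307034-110307333 on the plus strand and the COL4A1 window chr13:110307108-110307407 on the minus strand.
COL4A2: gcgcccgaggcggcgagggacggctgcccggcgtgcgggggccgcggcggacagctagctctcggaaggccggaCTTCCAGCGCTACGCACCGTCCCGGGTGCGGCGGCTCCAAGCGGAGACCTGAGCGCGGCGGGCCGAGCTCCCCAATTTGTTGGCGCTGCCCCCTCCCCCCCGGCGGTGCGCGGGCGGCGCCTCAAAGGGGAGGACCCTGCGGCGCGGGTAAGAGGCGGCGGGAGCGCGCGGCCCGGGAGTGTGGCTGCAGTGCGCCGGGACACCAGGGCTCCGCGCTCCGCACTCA
COL4A1: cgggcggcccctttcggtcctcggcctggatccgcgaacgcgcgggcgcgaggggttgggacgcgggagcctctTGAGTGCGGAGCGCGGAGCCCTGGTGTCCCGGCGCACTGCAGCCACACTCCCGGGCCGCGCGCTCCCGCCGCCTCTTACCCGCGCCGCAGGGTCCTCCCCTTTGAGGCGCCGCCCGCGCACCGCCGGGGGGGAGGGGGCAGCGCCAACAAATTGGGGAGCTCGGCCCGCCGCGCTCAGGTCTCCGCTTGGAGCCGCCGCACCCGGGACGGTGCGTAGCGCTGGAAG
The windows are 77.7% (COL4A2) and 76.7% (COL4A1) G and C, against a median of 58.3% over all 27305 RefSeq windows.

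COL4A1 passed 1 CPM in a single sample, HA FOSL1. It had 66 UMIs (1.57 CPM, 1.21 to 2.0) in HA FOSL1 and 23 UMIs (0.403 CPM, 0.256 to 0.605) in HA control. It had 18 UMIs (0.375 CPM) with gRNA2 and 53 UMIs (0.619 CPM) with gRNA3, against 17 UMIs (0.380 CPM) in VPR control. HA FOSL1 stood alone, and the intervals of the other 4 samples overlapped. Its log2 ratio was 0.87 (0.59 to 1.12) in HA FOSL1, -0.01 (-0.28 to 0.27) with gRNA2 and 0.23 (-0.04 to 0.46) with gRNA3. COL4A2 had 7.54 CPM (6.73 to 8.41) in HA FOSL1 and 5.24 CPM (4.67 to 5.87) in HA control, and 4.45 CPM with gRNA2 and 4.18 CPM with gRNA3 against 5.25 CPM in VPR control. Its log2 ratio was 0.45 (0.25 to 0.65) in HA FOSL1, -0.20 (-0.42 to 0.03) with gRNA2 and -0.27 (-0.47 to -0.07) with gRNA3. Both chains were thus above the control in the HA system, while COL4A1 with either guide and COL4A2 with gRNA2 had intervals that held 0. After thinning cells to 5000 UMIs the COL4A2 ratio in HA FOSL1 was 0.71, past 1.5-fold. COL4A2 had the higher count of the pair in every sample. The counts are 3′ tags, and whether the 2 genes are captured alike was not tested.

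COL7A1 (chr3:48564073-48595329), which encodes the chain of anchoring fibrils, had 0.499 CPM in HA FOSL1 and 0.859 CPM in HA control, and 0.666 CPM with gRNA2 and 0.701 CPM with gRNA3 against 0.960 CPM in VPR control. All 3 log2 ratios were below 0 (-0.31, -0.23 and -0.20), and the intervals of both guides held 0. The collagen VI genes COL6A1 (chr21:45981770-46005048) and COL6A2 (chr21:46098112-46132848) were not detected in at least 4 of 5 samples each. COL6A2 had 0 UMIs in every sample, and COL6A1 had 1 UMI, with gRNA3. A count of 0 allows up to 3 UMIs, which is 0.0713 CPM in HA FOSL1, 0.0526 in HA control, 0.0624 with gRNA2, 0.0351 with gRNA3 and 0.0670 in VPR control.

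FN1 (fibronectin, chr2:215360865-215436068) and TNC (tenascin-C, chr9:115019575-115118157) lay on opposite sides of their controls in the 2 systems. FN1 had 6.75 CPM (5.99 to 7.59) in HA FOSL1 and 4.86 CPM (4.30 to 5.46) in HA control. With gRNA2 it had 2.66 CPM (2.22 to 3.17) and with gRNA3 2.37 CPM (2.06 to 2.72), against 3.64 CPM (3.10 to 4.24) in VPR control. TNC had 18.5 CPM (17.3 to 19.9) in HA FOSL1 and 15.2 CPM (14.2 to 16.2) in HA control. The gRNA2 sample had 9.86 CPM (9.0 to 10.8) of TNC and the gRNA3 sample 10.4 CPM (9.68 to 11.1), against 13.4 CPM (12.3 to 14.5) in VPR control. For both genes HA FOSL1 was highest and the guide samples were lowest, with the 2 controls between them. The log2 ratio of FN1 was 0.40 (0.20 to 0.61) in HA FOSL1, -0.34 (-0.60 to -0.08) with gRNA2 and -0.46 (-0.69 to -0.23) with gRNA3. That of TNC was 0.27 (0.14 to 0.41), -0.40 (-0.56 to -0.24) and -0.34 (-0.48 to -0.20) in the same order. The controls themselves differed for these genes, VPR control over HA control being -0.34 (-0.56 to -0.11) for FN1 and -0.17 (-0.32 to -0.03) for TNC, and both guide ratios share the 1 VPR control. Empty droplets held 7.10 CPM of FN1 (3.97 to 11.7), above the FN1 level of the guide samples.

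The RefSeq start windows of FN1 (chr2:215436019-215436318, minus strand) and TNC (chr9:115118108-115118407, minus strand) are shown because the ratios of these genes lay above 0 in one system and below 0 in the other. The capitals mark the motifs found by a search of both strands.
FN1: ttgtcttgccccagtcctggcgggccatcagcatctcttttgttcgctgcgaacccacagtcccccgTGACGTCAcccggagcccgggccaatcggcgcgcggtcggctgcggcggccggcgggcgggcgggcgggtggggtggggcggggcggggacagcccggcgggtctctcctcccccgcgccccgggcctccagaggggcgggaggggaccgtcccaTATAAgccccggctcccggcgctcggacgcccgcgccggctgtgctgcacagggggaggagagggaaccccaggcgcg
TNC: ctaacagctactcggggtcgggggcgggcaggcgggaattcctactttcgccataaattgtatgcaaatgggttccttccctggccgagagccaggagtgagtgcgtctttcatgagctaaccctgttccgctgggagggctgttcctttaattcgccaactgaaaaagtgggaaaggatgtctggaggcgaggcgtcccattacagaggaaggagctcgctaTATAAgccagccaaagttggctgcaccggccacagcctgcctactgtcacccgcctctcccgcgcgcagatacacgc
FN1 holds TGACGTCA, the CRE motif, from position -183 relative to the start, and TATAA from position -28. TNC holds TATAA from position -27. Over all windows CRE was found in 1.98% and TATAA in 21.1%. The AP-1 motif TGANTCA was in 0 of the 8 members that have a window, against 7.76% of all windows, and the table gives no window for COL5A2 and COL6A1. A match or its absence describes these letters only.

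**Figure D2:**
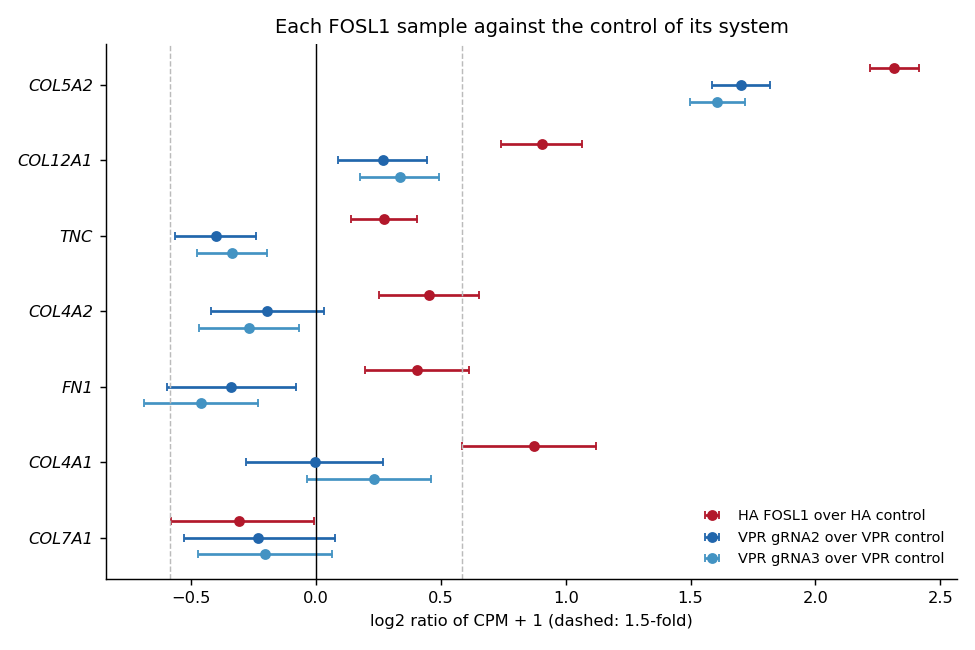
Log2 ratio of CPM + 1 (x axis) of each FOSL1 sample over the control of its system, for 7 members (y axis); points are 1 sample over 1 sample, whiskers the 95% interval of counting error and dashed lines 1.5-fold. COL5A2 lies beyond 1.5-fold in all 3 comparisons, and FN1, TNC and COL4A2 lie above 0 in the HA system and below 0 with both guides.

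Counted at 1.5-fold on this scale, COL5A2, COL4A1 and COL12A1 of the 10 members were higher in HA FOSL1, and COL5A2 alone was higher with gRNA2 and with gRNA3. No member was 1.5-fold lower. Among the 5 members with a mean of at least 1 CPM, which leaves out COL4A1, 2 were higher in HA FOSL1, where 6.6% of 12645 genes with that mean were higher and 4.67% lower. With gRNA2, 1 of the 5 was higher, against 1.48% of all genes higher and 1.27% lower. With gRNA3, 1 of the 5 was higher, against 1.49% higher and 1.83% lower. The members were chosen with earlier results of these data known, so these shares are no independent test. The median ratio of those 5 members was 0.45 in HA FOSL1, -0.20 with gRNA2 and -0.27 with gRNA3, beside -0.04, -0.01 and -0.02 over all genes. Between the guides, gRNA3 over gRNA2, COL5A2 differed by -0.09 (-0.16 to -0.02), an interval below 0 although the intervals of the 2 levels overlapped, and the intervals of the other expressed members held 0.

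All 5 samples were then fitted together, treating the 3 FOSL1 samples as replicates and adjusting for the system. In this model edgeR's quasi-likelihood test with Benjamini-Hochberg adjustment called 1.61% of 15439 genes (0.9% higher, 0.706% lower). Of the 7 members tested, COL5A2 alone passed and rose by log2 2.03 (SE 0.17, adjusted p = 0.028), with all 3 FOSL1 samples above their controls. The call rests on each guide sample, since COL5A2 changed by 2.06 (adjusted p = 0.090) without gRNA2 and by 2.10 (adjusted p = 0.083) without gRNA3, fits in which edgeR called 0 genes of any kind. In those fits 2614 genes without gRNA2 and 2371 without gRNA3 had an unadjusted p under 0.05. COL12A1 had 0.64 (SE 0.16, adjusted p = 0.10), and DESeq2 gave it an adjusted p of 0.023. COL4A1 had 1.26 (adjusted p = 0.16) and COL7A1 -0.57 (adjusted p = 0.16). FN1 (-0.05), TNC (-0.08) and COL4A2 (0.09) had changes smaller than their standard errors of 0.25, 0.17 and 0.20. The low-count filter left out COL5A1, COL6A1 and COL6A2. The fit has 2 residual degrees of freedom, and edgeR's test also borrows variance from other genes. Its p-values therefore rest partly on those genes and partly on how far the construct and the guides vary within 1 pool. Whether the samples were separate cultures is not stated.

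The difference between the systems was tested as an interaction, the effect in HA minus the mean effect of the guides. By edgeR's test 12.2% of 16071 genes were called, 8.37% with a higher effect in HA and 3.81% with a lower one. Of the 7 members tested, 5 were called, each with the higher effect in HA. FN1 differed by log2 1.04 (SE 0.21, adjusted p = 0.0072), COL4A2 by 0.83 (SE 0.18, adjusted p = 0.010) and TNC by 0.71 (SE 0.12, adjusted p = 0.0022). COL5A2 differed by 0.69 (SE 0.10, adjusted p = 0.00077) and COL12A1 by 0.67 (SE 0.14, adjusted p = 0.0076). COL4A1 had 1.51 (SE 0.61, adjusted p = 0.14) and COL7A1 -0.28 (SE 0.47, adjusted p = 0.76). FOSL1, the targeted gene, had -0.60 (SE 0.11, adjusted p = 0.0042 in edgeR and 0.057 in DESeq2). How FOSL1 was raised is not stated, so its 3′ tag counts may not be comparable between the systems. The fit has 1 residual degree of freedom, which is the difference between the 2 guides, so the single HA arm adds no spread. Its p-values in edgeR therefore rest largely on variance borrowed from other genes. Of the members DESeq2 called COL5A2 alone, with an adjusted p of 0.015, and gave 0.37 for TNC, 0.61 for COL12A1, 0.66 for FN1 and 0.77 for COL4A2.

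More single cells held a COL5A2 UMI in the FOSL1 samples. After thinning to 5000 UMIs, a COL5A2 UMI was found in 30.2% of HA FOSL1 cells (Clopper-Pearson interval 28.1 to 32.4) and 6.21% of HA control cells (5.42 to 7.08). In the VPR system 18.0% of cells with gRNA2 and 17.5% with gRNA3 had one, against 5.72% in VPR control. Unthinned shares were 64.4% in HA FOSL1 and 16.5% in HA control, and 42.8% with gRNA2 and 42.7% with gRNA3 against 15.9% in VPR control. A thinned cell with COL5A2 held 1.41 of its UMIs on average in HA FOSL1 and 1.24 in HA control, and 1.29 with gRNA2 and 1.28 with gRNA3 against 1.17 in VPR control. Unthinned, where depth also differs, the same means were 3.19 in HA FOSL1 and 1.75 in HA control, and 2.34 with gRNA2 and 2.32 with gRNA3 against 1.70 in VPR control. The unthinned 1% of cells with the most COL5A2 held 7.48% of its UMIs in HA FOSL1 and 21.1% in HA control, and 9.33% with gRNA2 and 9.72% with gRNA3 against 21.6% in VPR control, a share that also depends on the level of the gene.

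The other members were found in fewer cells at the same depth. COL12A1 was found in 7.87% of cells in HA FOSL1 and 3.47% in HA control, and in 4.53% with gRNA2 and 4.90% with gRNA3 against 4.06% in VPR control. TNC was found in 7.65% in HA FOSL1 and 6.27% in HA control, and in 4.61% with gRNA2 and 4.94% with gRNA3 against 6.07% in VPR control. COL4A2 was found in 4.18% in HA FOSL1 and 2.47% in HA control, and in 2.09% with gRNA2 and 1.59% with gRNA3 against 2.40% in VPR control. FN1 was found in 2.75% in HA FOSL1 and 2.11% in HA control, and in 1.14% with gRNA2 and 1.42% with gRNA3 against 1.86% in VPR control. COL4A1 did not exceed 0.770%, which was 14 of 1818 cells in HA FOSL1. The point values keep the sides seen in CPM. The intervals of these 5 members were apart from the control only in HA FOSL1, for COL12A1 and COL4A2. COL12A1 had 6.67 to 9.20 against 2.88 to 4.15, and COL4A2 had 3.31 to 5.20 against 1.97 to 3.05. In all other comparisons the intervals overlapped, so those shares alone do not show a side. For FN1, before thinning, 1 cell of HA FOSL1 held 16 of its 284 UMIs and 1 cell with gRNA2 held 14 of its 128.

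**Figure D3:**
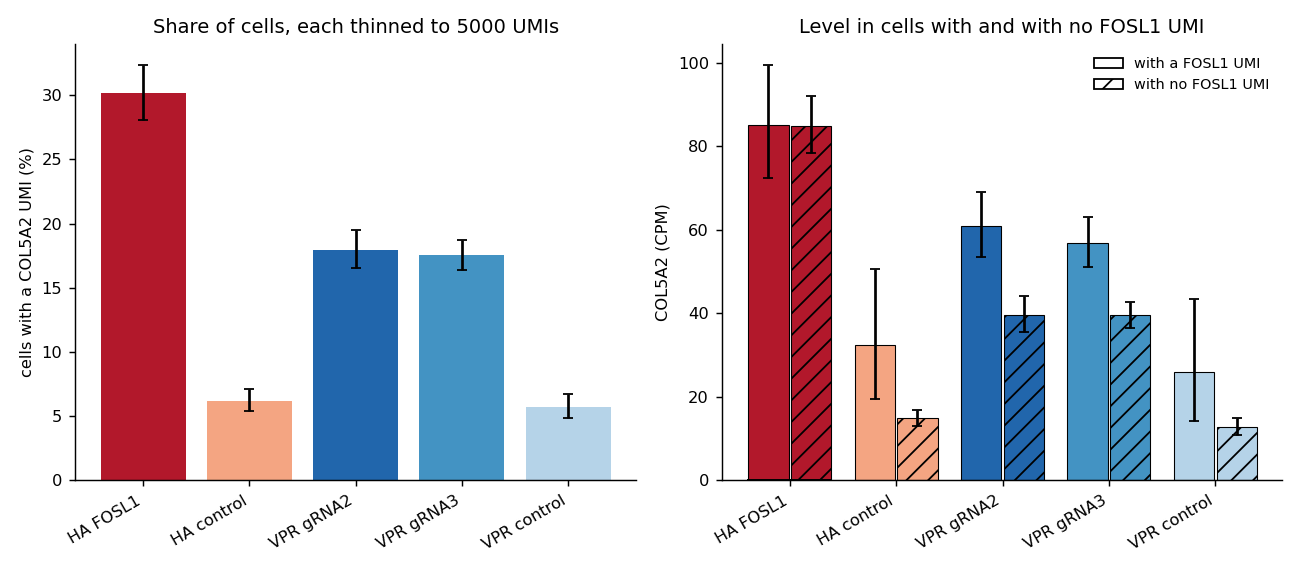
COL5A2 in cells thinned to 5000 UMIs. Left, the share of cells with a COL5A2 UMI in % (y axis) by sample, with exact binomial 95% intervals; right, the COL5A2 level in CPM in cells with a FOSL1 UMI (plain bars) and with none (hatched bars), with 95% Poisson intervals, which overlap in HA FOSL1 and VPR control and are apart with gRNA2, gRNA3 and in HA control.

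Within a sample, cells were divided by whether they held a FOSL1 UMI after thinning. With gRNA2, COL5A2 stood at 60.9 CPM (53.4 to 69.0) in FOSL1-positive cells and 39.7 CPM (35.6 to 44.1) in cells with none. With gRNA3 it stood at 56.9 CPM (51.2 to 63.0) in positive cells and 39.5 CPM (36.4 to 42.8) in cells with none. In HA FOSL1 the values were 85.3 CPM (72.5 to 99.6) and 85.0 CPM (78.4 to 92.0), so the levels did not separate there. HA control had 32.5 CPM (19.6 to 50.7) in 117 positive cells and 14.8 CPM (13.0 to 16.8) in the rest, and VPR control 25.9 CPM (14.2 to 43.5) in 108 positive cells and 12.8 CPM (10.9 to 15.0) in the rest. The value in positive HA control cells rests on 19 UMIs. These Poisson intervals hold counting error alone and may be too narrow between groups of cells. Before thinning, the variance of COL5A2 over HA control cells was 2.73 times its mean. A cell with no FOSL1 UMI at this depth may still hold FOSL1 transcripts, and free RNA carried FOSL1 at 63.4 CPM. TNC separated in VPR control, at 27.8 CPM (15.5 to 45.8) in positive cells and 12.4 CPM (10.5 to 14.5) in the rest, and in none of the other 4 samples. The intervals of COL12A1, COL4A2 and FN1 overlapped in all 5 samples.

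Pairs of members were counted in the same thinned cells. With gRNA3, a COL12A1 UMI was found in 7.59% (5.80 to 9.72) of COL5A2-positive cells and 4.32% (3.68 to 5.05) of the others. The same shares were 9.47% and 7.17% in HA FOSL1, 6.58% and 4.08% with gRNA2, 4.31% and 3.42% in HA control and 8.11% and 3.81% in VPR control. The share was higher among COL5A2-positive cells in all 5 samples, but apart from gRNA3 the intervals overlapped. FN1 and TNC did not separate by each other in any sample. The other pairs counted were COL4A2 with COL4A1, with FN1 and with TNC, and COL5A2 with FN1 and with TNC. Their intervals overlapped in all 5 samples. Among all pairs and samples counted, COL5A2 and COL12A1 with gRNA3 were thus the only case apart.

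Beyond the 10 members, 133 further matrix genes were read in 7 lists. Because these genes were chosen with earlier results of these data known, shares called among them are no test of enrichment. The edgeR model of 5 samples tested 89 of them and called 7 (5 higher, 2 lower), which is 7.87%, beside 1.61% of all genes tested. DESeq2 called 13 of these 89 higher and 2 lower, beside 723 higher and 392 lower of all 15439 genes that edgeR tested. Without gRNA2, or without gRNA3, edgeR called 0 of them. Over the 6 lists with more than 1 gene at a mean of at least 1 CPM, list medians ran between 0.08 and 0.37 in HA FOSL1, between -0.02 and 0.19 with gRNA2 and between -0.03 and 0.22 with gRNA3, beside -0.04, -0.01 and -0.02 over all genes. Among other non-fibrillar collagens 2 of 17 tested rose and 0 fell in edgeR, and DESeq2 called 4 higher. COL13A1, a transmembrane collagen, had 6.42 CPM in HA FOSL1 and 1.81 CPM in HA control, and 6.58 CPM with gRNA2 and 6.48 CPM with gRNA3 against 2.68 CPM in VPR control (log2 1.54, adjusted p = 0.035). COL17A1, the collagen of hemidesmosomes, had 2.31 CPM in HA FOSL1 and 0.228 CPM in HA control, and 0.312 CPM with gRNA2 and 0.339 CPM with gRNA3 against 0.0670 CPM in VPR control, where it had 3 UMIs (log2 3.11, adjusted p = 0.035). COL18A1, the source of endostatin, had ratios of -0.51 in HA FOSL1, 0.27 with gRNA2 and 0.27 with gRNA3 and did not pass. COL4A5, another chain of basement membrane collagen IV, had ratios of 0.16, 0.13 and 0.18 in HA FOSL1, gRNA2 and gRNA3 and did not pass. Among other fibrillar collagens 0 of 3 tested passed in edgeR, and DESeq2 called 0. In edgeR 2 of the 3 had an unadjusted p under 0.05, beside 4020 of all 15439 genes tested.

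Of 17 folding and modification enzymes tested, 1 rose and 0 fell in edgeR, and DESeq2 called 3 higher. P3H2, a prolyl 3-hydroxylase of basement membrane collagens, had 21.8 CPM in HA FOSL1 and 12.3 CPM in HA control, and 23.6 CPM with gRNA2 and 22.3 CPM with gRNA3 against 11.3 CPM in VPR control (log2 0.96, SE 0.08, adjusted p = 0.028). P4HA2, a prolyl 4-hydroxylase subunit, had ratios of 1.07 in HA FOSL1, -0.05 with gRNA2 and -0.06 with gRNA3 and did not pass, nor did MIA3, which loads collagen for export, or P3H4. Of 10 processing and crosslinking enzymes tested, 1 rose and 0 fell, and DESeq2 called 1 higher. LOXL2, a lysyl oxidase that crosslinks collagen IV, had 19.0 CPM in HA FOSL1 and 8.54 CPM in HA control, and 16.6 CPM with gRNA2 and 17.9 CPM with gRNA3 against 10.5 CPM in VPR control (log2 0.93, adjusted p = 0.044). BMP1, a procollagen protease, had ratios of 0.89, 0.18 and 0.19 in HA FOSL1, gRNA2 and gRNA3 and did not pass, nor did the collagen IV crosslinker PXDN.

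Of 8 basement membrane genes outside laminin-332, 0 passed in edgeR and DESeq2 called 1. In edgeR 6 had an unadjusted p under 0.05, beside 4020 of all 15439 genes tested. The laminin γ1 gene LAMC1 had ratios of 0.91, 0.44 and 0.41 in HA FOSL1, gRNA2 and gRNA3 (adjusted p = 0.067), and LAMB1 had 0.75, 0.27 and 0.19. LAMA4 had -0.66, 0.02 and 0.06, and LAMB2 -0.33, -0.18 and -0.30. Of 19 other glycoproteins and proteoglycans tested, 2 fell and 0 rose in edgeR, and DESeq2 called 2 lower and 3 higher, the higher ones being THBS1, TGFBI and LTBP3. FBLN1 (fibulin-1) fell by log2 0.59 (adjusted p = 0.034), with 163 CPM in HA FOSL1 and 271 CPM in HA control, and 201.4 CPM with gRNA2 and 201.1 CPM with gRNA3 against 288 CPM in VPR control. LTBP1, which binds latent TGF-β, fell by 0.87 (adjusted p = 0.034), with 7.06 CPM in HA FOSL1 and 14.3 CPM in HA control, and 7.72 CPM with gRNA2 and 7.08 CPM with gRNA3 against 13.0 CPM in VPR control. THBS1 (thrombospondin-1) had ratios of 0.77, 0.32 and 0.40, with an adjusted p of 0.070 in edgeR and 9.5e-05 in DESeq2. MATN2 had 1.51, -0.02 and 0.11 and passed in neither.

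Of 15 receptors tested, 1 rose and 0 fell, and DESeq2 called 1 higher. ITGA3, the α3 subunit of a laminin-binding integrin, had 72.9 CPM in HA FOSL1 and 33.4 CPM in HA control, and 60.0 CPM with gRNA2 and 61.8 CPM with gRNA3 against 39.5 CPM in VPR control (log2 0.86, adjusted p = 0.049). Its adjusted p in edgeR was 0.0506 with DESeq2's size factors and 0.051 with 5% free RNA subtracted, so the call was lost in both. ITGA2, the α2 subunit of a collagen-binding integrin, had 46.9 CPM in HA FOSL1 and 8.35 CPM in HA control, and 13.3 CPM with gRNA2 and 11.8 CPM with gRNA3 against 9.65 CPM in VPR control. Its model value did not pass (adjusted p = 0.17). ITGB6 and the syndecan SDC1 lay below their controls in all 3 comparisons and did not pass.

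**Figure D4:**
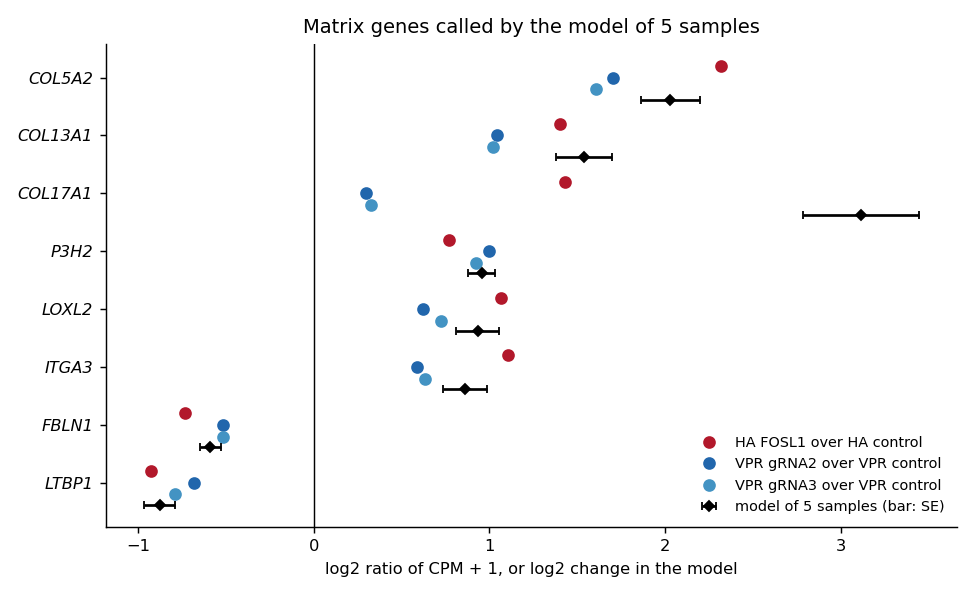
COL5A2 and the 7 other matrix genes called by the edgeR model (y axis); circles are log2 ratios of CPM + 1 (x axis) of each FOSL1 sample over its control, and diamonds the model's log2 change with its SE. FBLN1 and LTBP1 lie below 0 in all 3 comparisons and the other 6 above 0; COL17A1 has a model value of 3.11 and ratios of 1.43, 0.30 and 0.33 on the scale where 1 CPM is added.

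The genes beside the members did not share one pattern. WDR75, a ribosome biogenesis gene 363 bases beyond COL5A2, had ratios of 0.10, 0.18 and 0.19 in HA FOSL1, gRNA2 and gRNA3 (adjusted p = 0.13). GULP1, the nearest gene at a mean of at least 1 CPM on the other side, 435972 bases away, had 36.4 CPM in HA FOSL1 and 12.2 CPM in HA control, and 28.6 CPM with gRNA2 and 30.6 CPM with gRNA3 against 17.1 CPM in VPR control (adjusted p = 0.058). CD109, 1256013 bases from COL12A1, had ratios of 1.83, 0.70 and 0.49 (adjusted p = 0.098). On its other side COX7A2, 31622 bases from COL12A1, had -0.11, -0.05 and -0.03. Around COL5A1, COL6A1, COL6A2, COL7A1 and FN1, the nearest genes at that mean had ratios between -0.34 and 0.27. RAB20, 9857 bases beyond COL4A2, had 0.10, -0.02 and -0.12. On the 2 sides of TNC, TNFSF15 had -1.03, -0.55 and -0.89 and PAPPA had 1.83, 0.59 and 1.53. Their adjusted p was 0.058 and 0.080 in the edgeR model of 5 samples. IRS2, 362380 bases from COL4A1, had 0.21, 0.53 and 0.45 (adjusted p = 0.071 in that model).

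Genes most like a member were sought by the Euclidean distance of the 3 ratios, among 5747 genes with a mean of at least 20 CPM. Nearest to COL5A2 were the caveolin gene CAV1 (distance 0.19) and the keratin genes KRT14 (0.21) and KRT16 (0.69). Nearest to COL12A1 were SP100 (0.03), B4GALT4 (0.05) and KRT17 (0.06), nearest to COL4A2 BPGM (0.03), SERPINB6 (0.10) and PGM2L1 (0.11), and nearest to TNC CASP4 (0.11), DUSP4 (0.12) and HLA-C (0.14). COL5A2 and KRT16 were thus farther apart than any other pair named, over 3 ratios of which 2 share a control.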

How the data were processed

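The authors deposited raw UMI counts for 33538 genes in 3314631 barcodes, made with Cell Ranger 4 per the file headers and on hg38 per the submitters' processing notes. A deposited table assigns 21228 called cells to hashtags, with a probability that is a fraction; its tool was not given in the sources used here. The hashtags with the prefix GOF were taken as the HA samples by elimination, and the protocol speaks of a pool of 6 samples where the design names 5. A single sample was assigned to 72.4% of cells; multiplets (24.4%), unassigned and blank cells were left out, and doublets within a sample were not called. Cells with at least 1500 genes and at most 20% mitochondrial UMIs were kept (14642 cells).

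UMIs were summed per sample and scaled to CPM. Ratios use CPM + 1, which understates changes of low genes, with exact conditional binomial 95% intervals. Summed counts were fitted with edgeR 4.0.16 (quasi-likelihood test, TMM, filterByExpr, Benjamini-Hochberg adjusted p under 0.05) and, as an alternative, DESeq2 1.42.0, after tests on simulated data. Named were all members, list genes called by the model, the 2 largest and 2 smallest mean ratios per list at a mean of at least 5 CPM, the 3 nearest genes per member and some neighbours. Start windows and positions are from RefSeq, GRCh38.p14, with 8 of 10 members matched to a window. The members and lists were chosen with earlier results of these data known.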

Additional observations from a re-analysis of the deposited data

Results flagged for a closer look

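The effect of FOSL1 differed between the systems for 5 members by the interaction term of edgeR's model (Benjamini-Hochberg adjusted p given above), always with the higher value in HA. The difference was log2 0.69 for COL5A2, 0.83 for COL4A2, 0.67 for COL12A1, 1.04 for FN1 and 0.71 for TNC.

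Cells outside every comparison also carried members above the level of both controls. COL5A2 stood at 50.9 CPM in multiplets, 45.6 CPM in unassigned cells and 56.6 CPM in blank cells. COL4A1 stood at 0.758 CPM in multiplets. COL12A1 stood at 12.0 CPM in multiplets and 13.5 CPM in unassigned cells. The pool held FOSL1 samples as well as controls. A mixture of its samples lies above the controls for a gene that is high in the FOSL1 samples, so these values are no separate result. The make-up of these cells by sample was not measured.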

How the results depend on the processing

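Of the members' ratios recomputed under 8 alternatives in the 3 comparisons, 216 stayed within their counting interval, 24 moved beyond it, and 0 of those at 1.5-fold changed sign. With a pseudocount of 0.1 CPM, 5 members were 1.5-fold apart in HA FOSL1 (4 higher, 1 lower) and 3 with gRNA3 (2 higher, 1 lower). Against HA control in place of VPR control, 2 members were 1.5-fold apart with gRNA2 and 2 with gRNA3, FN1 being the lower one. In the model of 5 samples the members called were 2 with no filter, 2 by DESeq2 (COL5A2 and COL12A1) and 3 without both HA samples, where TNC had -0.38 (adjusted p = 0.011). Other matrix genes called were 30 with no filter, 15 by DESeq2 and 24 without both HA samples. Leaving out gRNA2, or gRNA3, gave 0 members and 0 other matrix genes in edgeR, with 2614 and 2371 genes at an unadjusted p under 0.05. The ITGA3 call was lost with DESeq2's size factors in edgeR and with 5% free RNA subtracted, and that of COL17A1 without both HA samples (adjusted p = 0.051). DESeq2 called 1 member for the interaction, against 5 by edgeR. Over all genes the model of 5 samples called 139 higher and 109 lower in edgeR, 725 and 392 in DESeq2, 1177 and 807 with no filter, and 961 and 912 without both HA samples. For the interaction edgeR called 1345 higher and 613 lower, and DESeq2 355 and 95. In the model, FN1 ranged between -0.018 and 0.067 when 1 guide sample was left out, against -0.054 with all 5. Its lowest value under any setting of the model was -0.53. COL4A2 was -0.27 without both HA samples, against 0.09. The cause was not tested, except that fits with fewer samples hold fewer degrees of freedom. Depth limits COL4A1, COL5A1 and COL7A1, with at most 66 UMIs in a sample. No paired analysis was possible because each group has 1 sample.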
